A study of Danio rerio with 11 samples.

Results

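The genes of the cell division cycle were followed through eye growth in zebrafish, from the 24 hours post fertilization (hpf) head to the adult retina, in srrm3 mutant and wild-type fish. The set was a list of 36 zebrafish symbols of DNA replication and mitosis, matched to the Ensembl identifiers of the deposited tables. Identifiers were found for 34 symbols, and birc5a and incenp were dropped because no identifier matched. As mcm6 matched 2 identifiers, the set held 35 genes of the 29387 with values. By role it was divided into 12 replication genes, 19 mitosis genes and 4 other cell cycle genes.

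Polyadenylated RNA was sequenced from 11 libraries. Eyes of mutant larvae and of their wild-type (WT) siblings were taken at 4 stages, 48, 60 and 72 hpf and 5 days post fertilization (dpf), each genotype giving 1 library a stage. The mutants carry a lesion of the eMIC domain of srrm3, whose product is a splicing regulator that promotes inclusion of neuronal microexons. A library of 24 hpf WT heads, from the AB strain per the series' design text, and 2 libraries of WT adult retina completed the series. Tissue was pooled before extraction. The pools held 20 eyes at 5 dpf, between 20 and 60 eyes at 48 to 72 hpf, and 5 retinae in the adult, while the sources used here do not give the number of heads. The labels do not say whether different animals supplied the 2 adult libraries, and their spread may be technical only. Eyes included the lens, adult samples were retina alone, and the youngest sample was the whole head, so tissue and age changed together at both ends of the series.

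In a dividing cell the MCM helicase is loaded onto DNA with the help of Cdc6 and unwinds it during S phase. DNA polymerases held by the sliding clamp PCNA copy the genome. Ribonucleotide reductase and thymidylate synthase serve the supply of nucleotides. Mitosis then runs on cyclin B with Cdk1, on the Aurora and Polo kinases, on kinetochore and spindle proteins, and on Cdc20, which turns on the anaphase-promoting complex. In the fish eye, most retinal progenitors leave the cycle during embryonic life, while a ring of stem and progenitor cells at the ciliary margin keeps adding retina for as long as the fish grows. In bulk RNA, fewer dividing cells and less of a transcript per cell cannot be told apart.

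Library totals lay between 37724575 and 92560511 counts. Labels mark the 5 dpf and adult libraries, but not the earlier ones, as stranded, and the extraction kit differed from that of the 48 to 72 hpf eyes, so stage and library set cannot be told apart between 72 hpf and 5 dpf. Defining markers fitted the labelled tissues. The 19 photoreceptor genes matched summed to 16.99 cRPKM in the 24 hpf head, at 5 dpf to 3827 in mutant eyes and 29491 in WT eyes, and to 80649 and 96069 in the adult retina libraries. The 8 lens genes matched summed to 32640 and 49031 in mutant and WT eyes at 5 dpf and to 17.3 and 15.1 in adult retina. Markers of other tissues set apart the 5 dpf mutant library, which was high in exocrine pancreas genes. They also set apart adult library 1, in which summed skeletal muscle, leukocyte and red blood cell genes were high relative to adult library 2. Summed skeletal muscle genes also varied among larval eyes, from 1461 cRPKM in 72 hpf mutant eyes to 14189 in 48 hpf mutant eyes. They reached 8386 in 48 hpf WT eyes and 9985 in the head. Further values of these markers stand beside the results they touch. cRPKM is the authors' value per gene length and library depth, so levels may be set side by side between genes.

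**Figure D1:**
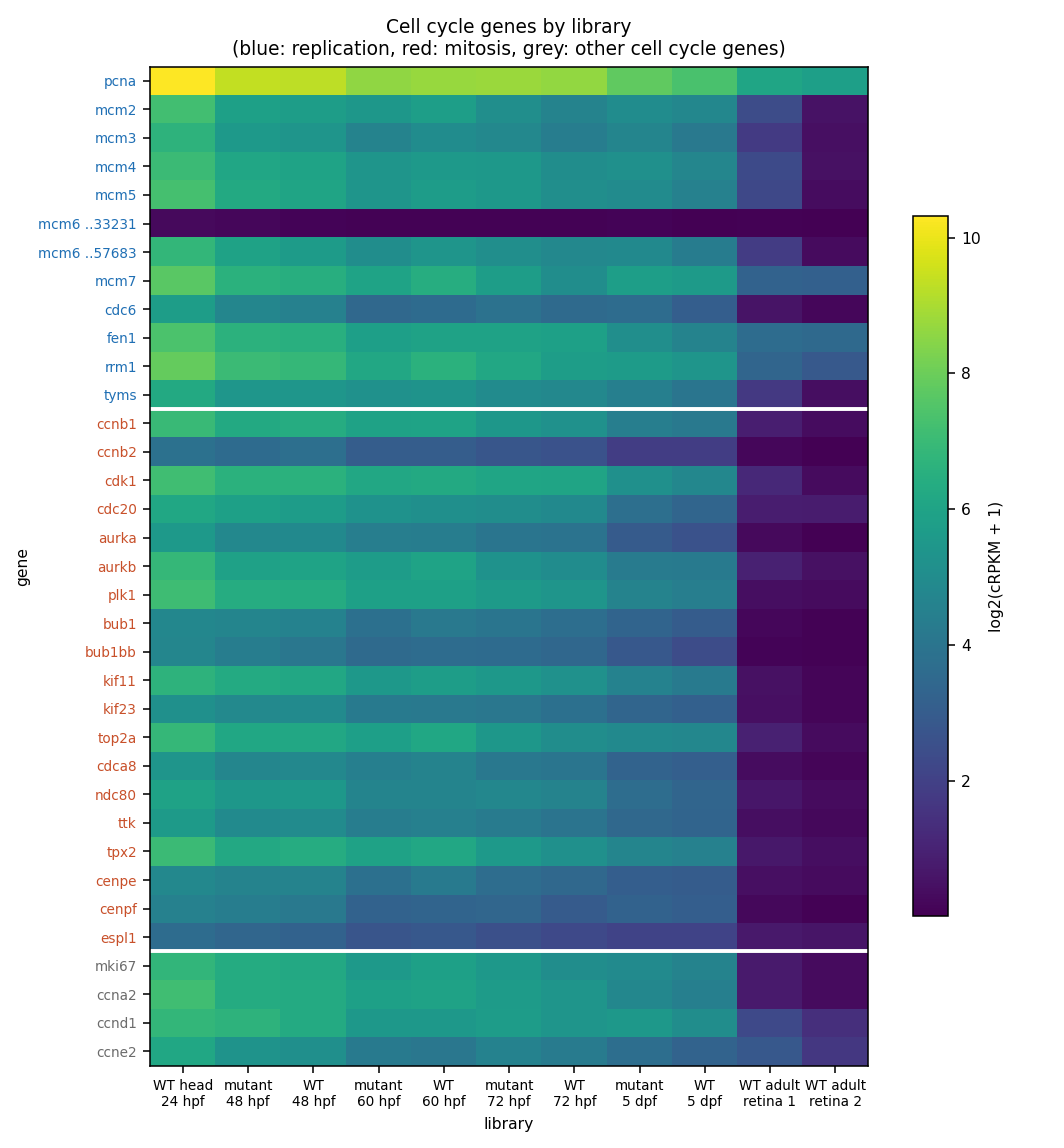
Level of the 35 cell cycle genes in the 11 libraries, as colour on a log2(cRPKM + 1) scale, with genes in rows by role and libraries in columns by age, mutant left of WT. The column of the 24 hpf head is the highest in every row, the 2 adult columns are the lowest but for the second mcm6 identifier, and the mutant and WT columns of a stage look alike; that identifier stays near 0 in all libraries.

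The 24 hpf head held the highest level of all 35 genes, and the excess over the 48 hpf eye was larger for replication genes than for mitosis genes. Every eye library was below the head for 35 of 35 genes, counted with no floor on their level. Of all 14419 genes that reached 5 cRPKM in any of these libraries, 20.2% had that order. Against 48 hpf WT eyes, 10 members were at least 2-fold higher in the head on the log2(cRPKM + 1) scale, with 405 of 11096 genes in the whole table (3.65%) past the same line. Of these 10, 9 were replication genes, 1 was ccne2 and none was a mitosis gene. The median log2 ratio, head over eye, was 1.09 for replication genes and 0.54 for mitosis genes, beside −0.15 for all genes. With 1 library a group and 2 tissues, this ratio has no replicate check.

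Among replication genes, pcna encodes the sliding clamp of DNA polymerase. Its level was 1271 cRPKM in the 24 hpf head, 665 in mutant against 629 in WT eyes at 48 hpf, 386 against 419 at 60 hpf, 429 against 395 at 72 hpf and 219 against 163 at 5 dpf, and 65.7 and 55.9 in adult retina libraries 1 and 2. The head library had 2.02-fold the level of the 48 hpf WT eyes, both 5 dpf libraries were below all 6 earlier eye libraries, and both adult libraries were lower still. The fitted change of pcna per doubling of age over the 8 larval eye libraries was −1.32 ± 0.15 (edgeR adjusted p = 0.000978) on the log2 scale. pcna was the most abundant member in every library and made up between 39.7% and 67.4% of the summed replication level.

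The MCM genes encode the 6 subunits of the replicative helicase. The level of mcm2 was 146 cRPKM in the 24 hpf head, 57.7 in mutant against 52.4 in WT eyes at 48 hpf, 43.03 against 54.97 at 60 hpf, 33.8 against 23.4 at 72 hpf and 31.8 against 26.8 at 5 dpf, and 4.38 and 0.43 in adult retina libraries 1 and 2. Both 5 dpf values of mcm2 lay between the 2 values at 72 hpf. Its slope was −0.75 ± 0.25 (edgeR adjusted p = 0.0456). The level of mcm5 was 153 cRPKM in the 24 hpf head, 77.2 in mutant against 64.7 in WT eyes at 48 hpf, 40.4 against 51.1 at 60 hpf, 44.5 against 33.1 at 72 hpf and 30.8 against 22.1 at 5 dpf, and 3.69 and 0.28 in adult retina libraries 1 and 2. Here the 5 dpf libraries were below all earlier eyes, and the slope was −1.07 ± 0.19 (edgeR adjusted p = 0.00387). The level of mcm7 was 202 cRPKM in the 24 hpf head, 94.7 in mutant against 87.03 in WT eyes at 48 hpf, 62.9 against 85.5 at 60 hpf, 52.7 against 32.02 at 72 hpf and 54.2 against 48.4 at 5 dpf, and 8.43 and 7.9 in adult retina libraries 1 and 2. Both 5 dpf values of mcm7 lay above the 72 hpf WT value, and its slope of −0.65 ± 0.29 (edgeR adjusted p = 0.109) was the smallest of the set and did not pass the test. The slopes of mcm3, mcm4 and the abundant mcm6 identifier, ENSDARG00000057683, were −0.77 ± 0.22, −0.81 ± 0.18 and −0.89 ± 0.20, all past the threshold. The other mcm6 identifier, ENSDARG00000033231, stayed between 0.01 and 0.20 cRPKM in all libraries and was too low for the larval fit. Reads of near-identical copies could be shared between identifiers, so mcm6 values are uncertain as single genes.

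cdc6 encodes a loader of the helicase. It had 53.1 cRPKM in the 24 hpf head, 26.02 in mutant against 22.5 in WT eyes at 48 hpf, 10.4 against 11.2 at 60 hpf, 14.1 against 10.9 at 72 hpf and 11.8 against 7.52 at 5 dpf, and 0.46 and 0.14 in adult retina libraries 1 and 2. Its larval levels at 60 hpf, 72 hpf and 5 dpf overlapped, and the slope was −0.91 ± 0.26 (edgeR adjusted p = 0.025). fen1, the flap endonuclease that trims Okazaki fragments, had 169 cRPKM in the 24 hpf head, 98.7 in mutant against 89.7 in WT eyes at 48 hpf, 55.97 against 60.5 at 60 hpf, 60.7 against 57.7 at 72 hpf and 33.8 against 23.9 at 5 dpf, and 11.7 and 10.4 in adult retina libraries 1 and 2. Earlier eyes, 5 dpf eyes and adult retina did not overlap, and its slope was −1.27 ± 0.15 (edgeR adjusted p = 0.000972). rrm1, the large subunit of ribonucleotide reductase, had 237 cRPKM in the 24 hpf head, 129 in mutant against 118 in WT eyes at 48 hpf, 71.9 against 94.8 at 60 hpf, 72.2 against 52.1 at 72 hpf and 49.2 against 40.95 at 5 dpf, and 9.24 and 6.51 in adult retina libraries 1 and 2. The 5 dpf libraries of rrm1 were just below the lowest earlier eye library, with a slope of −1.10 ± 0.21 (edgeR adjusted p = 0.00508). tyms, thymidylate synthase, had 76.9 cRPKM in the 24 hpf head, 42.2 in mutant against 41.4 in WT eyes at 48 hpf, 36.6 against 38.8 at 60 hpf, 30.6 against 27.6 at 72 hpf and 21.2 against 15.2 at 5 dpf, and 2.29 and 0.3 in adult retina libraries 1 and 2. In each genotype every later stage had less tyms than the one before, and the slope was −0.99 ± 0.14 (edgeR adjusted p = 0.0018).

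Among mitosis genes, ccnb1 and cdk1 encode the cyclin and the kinase that drive entry into mitosis. The level of ccnb1 was 128 cRPKM in the 24 hpf head, 77.2 in mutant against 82.1 in WT eyes at 48 hpf, 60.3 against 61.8 at 60 hpf, 43.3 against 36.1 at 72 hpf and 20.6 against 17.1 at 5 dpf, and 0.85 and 0.29 in adult retina libraries 1 and 2. That of cdk1 was 141 cRPKM in the 24 hpf head, 96.3 in mutant against 96.6 in WT eyes at 48 hpf, 72.2 against 76.8 at 60 hpf, 66.4 against 63.6 at 72 hpf and 35.6 against 26.6 at 5 dpf, and 1.29 and 0.26 in adult retina libraries 1 and 2. In both genes and in each genotype every later stage had less than the one before. By their log2 ratio, but for ccnb1 not by their difference in cRPKM, mutant and WT values lay closer together at 48 and 60 hpf than at 5 dpf. Per doubling of age ccnb1 changed by −1.65 ± 0.15 (edgeR adjusted p = 0.00054) and cdk1 by −1.28 ± 0.13 (edgeR adjusted p = 0.000648). cdc20, the activator of the anaphase-promoting complex, had 70.8 cRPKM in the 24 hpf head, 57.5 in mutant against 51.3 in WT eyes at 48 hpf, 37.2 against 34.5 at 60 hpf, 32.5 against 28.9 at 72 hpf and 12.7 against 9.47 at 5 dpf, and 0.81 and 0.76 in adult retina libraries 1 and 2. Its slope, −1.77 ± 0.13 (edgeR adjusted p = 0.000363), was the steepest of all members. espl1, the separase that cleaves cohesin, had 11.6 cRPKM in the 24 hpf head, 9.52 in mutant against 8.53 in WT eyes at 48 hpf, 5.6 against 6.2 at 60 hpf, 4.85 against 3.86 at 72 hpf and 3.25 against 3.29 at 5 dpf, and 0.65 and 0.53 in adult retina libraries 1 and 2. Its larval slope was −1.09 ± 0.20 (edgeR adjusted p = 0.00459), and its level was among the lowest of the set in the head and in larval eyes, but not in adult retina.

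The mitotic kinases and a checkpoint gene were lower in both 5 dpf libraries than in any earlier eye library, but not all fell at every step before that. aurka, the centrosomal Aurora kinase, had 45.7 cRPKM in the 24 hpf head, 27.4 in mutant against 28.5 in WT eyes at 48 hpf, 20.7 against 19.7 at 60 hpf, 15.4 against 14.5 at 72 hpf and 6.91 against 5.04 at 5 dpf, and 0.21 and 0.03 in adult retina libraries 1 and 2. The adult library 2 value of aurka rested on 3 reads, and its larval slope was −1.75 ± 0.14 (edgeR adjusted p = 0.00039). aurkb, the kinase of the chromosomal passenger complex, had 115 cRPKM in the 24 hpf head, 58.7 in mutant against 62.8 in WT eyes at 48 hpf, 50.6 against 62.9 at 60 hpf, 37.5 against 31.7 at 72 hpf and 18.8 against 17.8 at 5 dpf, and 0.93 and 0.39 in adult retina libraries 1 and 2. The 60 hpf WT eyes had about as much aurkb as the 48 hpf WT eyes, and the slope was −1.43 ± 0.19 (edgeR adjusted p = 0.00155). plk1, the Polo kinase, had 136 cRPKM in the 24 hpf head, 82.2 in mutant against 80.3 in WT eyes at 48 hpf, 57.8 against 57.7 at 60 hpf, 47.8 against 40.5 at 72 hpf and 23.8 against 20.5 at 5 dpf, and 0.32 and 0.24 in adult retina libraries 1 and 2. Its slope was −1.45 ± 0.14 (edgeR adjusted p = 0.000534). bub1bb, a spindle checkpoint gene, had 25.9 cRPKM in the 24 hpf head, 19.7 in mutant against 16.2 in WT eyes at 48 hpf, 10.8 against 11.7 at 60 hpf, 11.3 against 9.92 at 72 hpf and 6.18 against 4.24 at 5 dpf, and 0.09 and 0.04 in adult retina libraries 1 and 2. In mutant eyes bub1bb was no lower at 72 hpf than at 60 hpf, and the slope was −1.34 ± 0.15 (edgeR adjusted p = 0.000872).

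kif11 encodes the motor that pushes spindle poles apart. Its level was 100.1 cRPKM in the 24 hpf head, 77.8 in mutant against 72.9 in WT eyes at 48 hpf, 43.8 against 52.7 at 60 hpf, 44.8 against 36.5 at 72 hpf and 23.01 against 17.8 at 5 dpf, and 0.38 and 0.1 in adult retina libraries 1 and 2. By the plain ratio of cRPKM, the head exceeded the 48 hpf WT eyes by 1.37-fold. By that ratio every mitosis gene, kif11 among them, had a smaller step than any replication gene. The slope of kif11 was −1.43 ± 0.16 (edgeR adjusted p = 0.000774). top2a, the topoisomerase that untangles sister chromatids, had 115 cRPKM in the 24 hpf head, 70.1 in mutant against 71.1 in WT eyes at 48 hpf, 56.2 against 70.1 at 60 hpf, 43.3 against 32.1 at 72 hpf and 29.1 against 26.3 at 5 dpf, and 0.96 and 0.24 in adult retina libraries 1 and 2. The 60 hpf WT value was close to the 48 hpf values, and the slope was −1.11 ± 0.22 (edgeR adjusted p = 0.00609). The kinetochore motor gene cenpe had 27.1 cRPKM in the 24 hpf head, 23.7 in mutant against 23.6 in WT eyes at 48 hpf, 13.2 against 17.4 at 60 hpf, 11.8 against 10.3 at 72 hpf and 7.44 against 7.15 at 5 dpf, and 0.35 and 0.26 in adult retina libraries 1 and 2. Its slope was −1.28 ± 0.19 (edgeR adjusted p = 0.00209). The centromere protein gene cenpf had 21.99 cRPKM in the 24 hpf head, 19.7 in mutant against 17.2 in WT eyes at 48 hpf, 8.53 against 9.06 at 60 hpf, 9.54 against 6.9 at 72 hpf and 8.47 against 7.62 at 5 dpf, and 0.18 and 0.05 in adult retina libraries 1 and 2. Both 5 dpf values of cenpf lay between those at 72 hpf, and its slope, −0.80 ± 0.28 (edgeR adjusted p = 0.0523), missed the threshold.

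Of the other 4 members, mki67 encodes the proliferation antigen Ki-67, and its level was 109 cRPKM in the 24 hpf head, 80.4 in mutant against 74.3 in WT eyes at 48 hpf, 46.2 against 56.6 at 60 hpf, 43.9 against 32.7 at 72 hpf and 29.6 against 23.9 at 5 dpf, and 0.67 and 0.23 in adult retina libraries 1 and 2. The slope of mki67 was −1.16 ± 0.19 (edgeR adjusted p = 0.00329). ccna2, the cyclin of S and G2 phases, had 139.99 cRPKM in the 24 hpf head, 80.3 in mutant against 79.3 in WT eyes at 48 hpf, 57.7 against 61.3 at 60 hpf, 49.5 against 40.4 at 72 hpf and 26.3 against 20.9 at 5 dpf, and 0.69 and 0.26 in adult retina libraries 1 and 2. Its slope was −1.38 ± 0.14 (edgeR adjusted p = 0.000649). ccnd1, the G1 cyclin that responds to growth signals, had 113 cRPKM in the 24 hpf head, 102 in mutant against 78.7 in WT eyes at 48 hpf, 43.9 against 45.1 at 60 hpf, 51.3 against 41.2 at 72 hpf and 44.96 against 32.6 at 5 dpf, and 3.85 and 1.68 in adult retina libraries 1 and 2. The 5 dpf mutant value lay between the 60 hpf values of the genotypes, and the slope was −0.83 ± 0.24 (edgeR adjusted p = 0.0268). ccne2, a cyclin of S phase entry, had 70.9 cRPKM in the 24 hpf head, 38.4 in mutant against 34.4 in WT eyes at 48 hpf, 17.7 against 15.9 at 60 hpf, 22.6 against 18.6 at 72 hpf and 12.2 against 8.67 at 5 dpf, and 6.13 and 2.21 in adult retina libraries 1 and 2. As the mean of both adult libraries it kept more of its 5 dpf WT level than any other member above 1 cRPKM, but in library 2 it kept 25.5%, less than fen1 at 43.7% and pcna at 34.3%. Its larval slope was −1.27 ± 0.21 (edgeR adjusted p = 0.00334).

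Over the 8 larval eye libraries, 32 of the 34 members tested fell with age and none rose, by the quasi-likelihood test of edgeR at a Benjamini-Hochberg adjusted p of 0.05. Over all genes 18.2% of 21829 genes fell and 19.0% rose. The exceptions were mcm7 and cenpf. The median slope was −0.91 for the replication genes tested, −1.35 for mitosis genes and −1.22 for the other 4, beside −0.01 for all genes. Mutant and WT libraries of an age entered as independent, so these p-values can be too small. Without the 48 hpf pair 7 calls were lost, namely mcm2, mcm3, mcm4, mcm6 (ENSDARG00000057683), cdc6, rrm1 and ccnd1. The call of mcm2 was lost also without the 60 hpf pair, those of cdc6 and ccnd1 without the 72 hpf pair, and those of mcm2, mcm3, cdc6 and ccnd1 without the 5 dpf mutant library. With a separate slope for WT eyes 9 calls were lost, the 7 lost without the 48 hpf pair and also top2a and espl1. With hours as a linear term the calls of mcm2, mcm3 and ccnd1 were lost, and with DESeq2 size factors or with no filter on low counts that of mcm2. mcm7 passed without the 72 hpf pair, and cenpf passed with DESeq2.

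In larval eyes the gap between the groups appeared at 5 dpf. From 48 to 72 hpf alone, where all libraries share a set, the median slope was −1.66 for replication genes and −1.66 for mitosis genes, and each of the 34 slopes was negative, from −2.20 to −1.02. In that shorter fit 8 members fell, ccnb2, cdc20, aurka, plk1, kif23, ttk, cenpe and espl1, all of them mitosis genes, beside 1.62% of 21150 genes. The adjusted p of all 34 members lay between 0.0413 and 0.123 by edgeR, so called and uncalled members differed little. Both 72 hpf libraries were below both 48 hpf libraries for 35 of 35 members, as they were for 36.2% of 12514 genes at 5 cRPKM or more. Both 5 dpf libraries were below all 6 earlier eye libraries for 18 of 19 mitosis genes but for 5 of 12 replication genes, pcna, mcm5, fen1, rrm1 and tyms, and for 27.3% of 14160 genes. Since the 5 dpf libraries belong to another set, part of this step cannot be told apart from library preparation. For mcm3, mcm4, mcm6 (ENSDARG00000057683) and cdc6 only the 5 dpf mutant library, high in exocrine pancreas genes, broke the order. Their 5 dpf WT values, 17.2, 25.8, 19.5 and 7.52 cRPKM, were below all 6 earlier eye libraries. The mitosis minus replication median, relative to 48 hpf WT eyes, was −0.41 in WT and −0.73 in mutant eyes at 5 dpf.

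**Figure D2:**
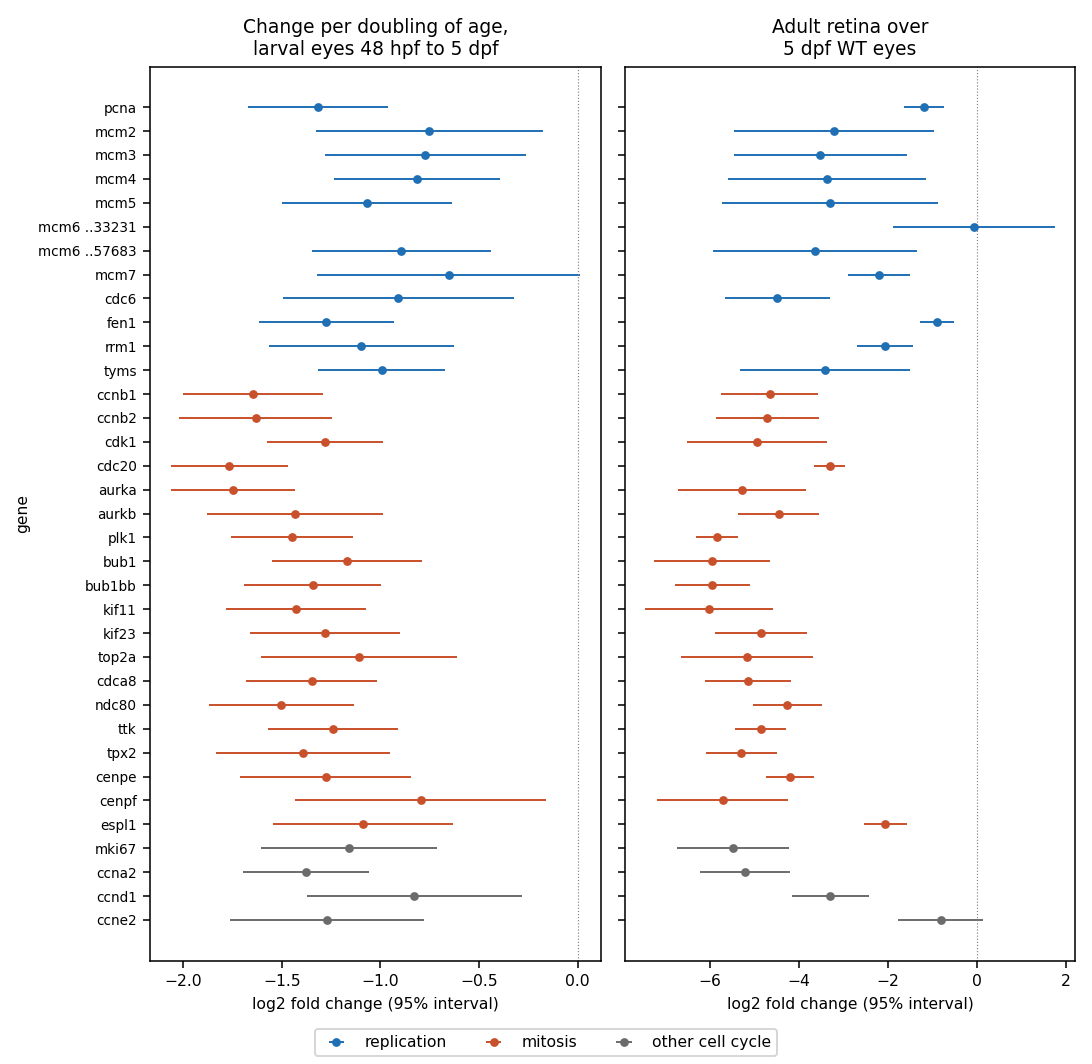
Fitted log2 fold change of each member with its 95% interval, per doubling of age over larval eyes (left) and for adult retina over 5 dpf WT eyes (right), with colour for the role. Larval changes span −1.77 to −0.65, with mitosis genes mostly left of replication genes, and adult changes reach −6.02; the low mcm6 identifier has no larval value.

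Adult retina retained little of the mitosis transcripts and a variable share of the replication transcripts. In the fit over all 11 libraries, 33 of 35 members were lower in adult retina than in 5 dpf WT eyes and none was higher, beside 16.6% of 23235 genes lower and 17.5% higher. The median log2 change was −3.25 for replication genes, −4.95 for mitosis genes and −4.26 for the other 4, against 0.06 for all genes. Both adult libraries were below both 5 dpf libraries for 34 of 35 members, compared with 43.5% of 13534 genes. The 19 mitosis genes lay between 0.09 and 1.29 cRPKM in adult library 1 and between 0.03 and 0.76 in adult library 2. In 5 dpf WT eyes they lay between 2.68 and 26.65. ccnb1, for example, averaged 0.57 ± 0.40 cRPKM in adult retina (SD, n = 2) and 17.1 in 5 dpf WT eyes, and plk1 0.28 ± 0.06 and 20.5. The lowest fitted changes were those of kif11, −6.02 ± 0.60 (edgeR adjusted p = 0.00105), bub1, −5.96 ± 0.54 (edgeR adjusted p = 0.00079), and bub1bb, −5.94 ± 0.35 (edgeR adjusted p = 0.000146). espl1 was the mitosis gene with the smallest change, −2.06 ± 0.21 (edgeR adjusted p = 0.000978), followed by cdc20 at −3.31 ± 0.15 (edgeR adjusted p = 5.09e-05).

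The replication genes differed widely in what remained in the adult. pcna averaged 60.8 ± 6.9 cRPKM in adult retina (SD, n = 2) and 163 in 5 dpf WT eyes, that is 37.3% of the larval level, with a change of −1.19 ± 0.18 (edgeR adjusted p = 0.00446). fen1 kept 46.4% of the 5 dpf WT level at 11.1 ± 0.9 cRPKM (SD, n = 2), with −0.90 ± 0.16 (edgeR adjusted p = 0.00664). rrm1 and mcm7 kept 19.2% and 16.9%, with changes of −2.07 ± 0.26 (edgeR adjusted p = 0.00221) and −2.19 ± 0.29 (edgeR adjusted p = 0.00255). By contrast cdc6 averaged 0.30 ± 0.23 cRPKM (SD, n = 2) in the adult and 7.52 in 5 dpf WT eyes, a change of −4.48 ± 0.49 (edgeR adjusted p = 0.00142), and mcm2 to mcm6 and tyms had fitted changes between −3.64 and −3.21 with larger errors. Among the other members, mki67 changed by −5.47 ± 0.53 (edgeR adjusted p = 0.000901), ccna2 by −5.22 ± 0.42 (edgeR adjusted p = 0.00048) and ccnd1 by −3.29 ± 0.36 (edgeR adjusted p = 0.00139). ccne2, at 4.17 ± 2.77 cRPKM (SD, n = 2) in the adult and 8.67 in 5 dpf WT eyes, did not pass, −0.81 ± 0.40 (edgeR adjusted p = 0.16), and neither did the low mcm6 identifier, −0.07 ± 0.76 (edgeR adjusted p = 0.955).

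The 2 adult libraries differed in how much replication and mitosis transcript they held. All 35 members were higher in adult library 1 than in library 2, whereas 46.3% of the 17451 genes at 1 cRPKM or more in either library were. The ratio of library 1 to library 2 was 10.2 for mcm2, 6.94 for mcm3, 10.0 for mcm4, 13.2 for mcm5, 10.4 for mcm6 (ENSDARG00000057683) and 7.63 for tyms. It was 1.18 for pcna, 1.12 for fen1, 1.07 for mcm7 and 1.07 for cdc20. Among mitosis genes cdc20 was the nearest to equal, while cdk1 had 1.29 and 0.26 cRPKM and top2a 0.96 and 0.24 in libraries 1 and 2. Mitosis genes summed to 9.40 and 4.25 cRPKM in these libraries, and replication genes to 114.95 and 82.9. Other tissue markers differed in the same direction. In adult libraries 1 and 2, the 10 leukocyte genes matched summed to 645.6 and 105.0 cRPKM, the 13 skeletal muscle genes to 1775.6 and 165.5, and the 7 red blood cell genes to 445.8 and 103.8. Of the leukocyte sums, cd74a alone gave 546.4 and 85.2. csf1ra, at 0.86 and 1.06, and csf1rb, at 0.13 and 0.27, were lower in library 1, and the remaining leukocyte genes were higher there. Summed progenitor and ciliary margin genes were not higher in library 1, with 393.7 and 435.2 over 18 genes. The part of these cells in the cell cycle values was not tested. With library 1 left out the replication median was −5.38 and the mitosis median −5.79, and with library 2 left out they were −2.42 and −4.46, so the distance between the group medians was smaller without library 1. The ratio of summed levels, by contrast, was higher in library 2 than in library 1. For mcm2 to mcm6 (ENSDARG00000057683) and tyms the fitted changes ran from −6.04 to −5.37 without library 1 and from −2.81 to −2.39 without library 2, and these 6 genes were no longer called by edgeR when the 5 dpf mutant library was left out. The call of ccne2 was gained without library 1, and that of mcm5 was lost with no filter on low counts. In a fit to the 5 dpf pair and the adult pair alone, with 1 residual degree of freedom, no member passed, nor did any gene of the table (0.0%).

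**Figure D3:**
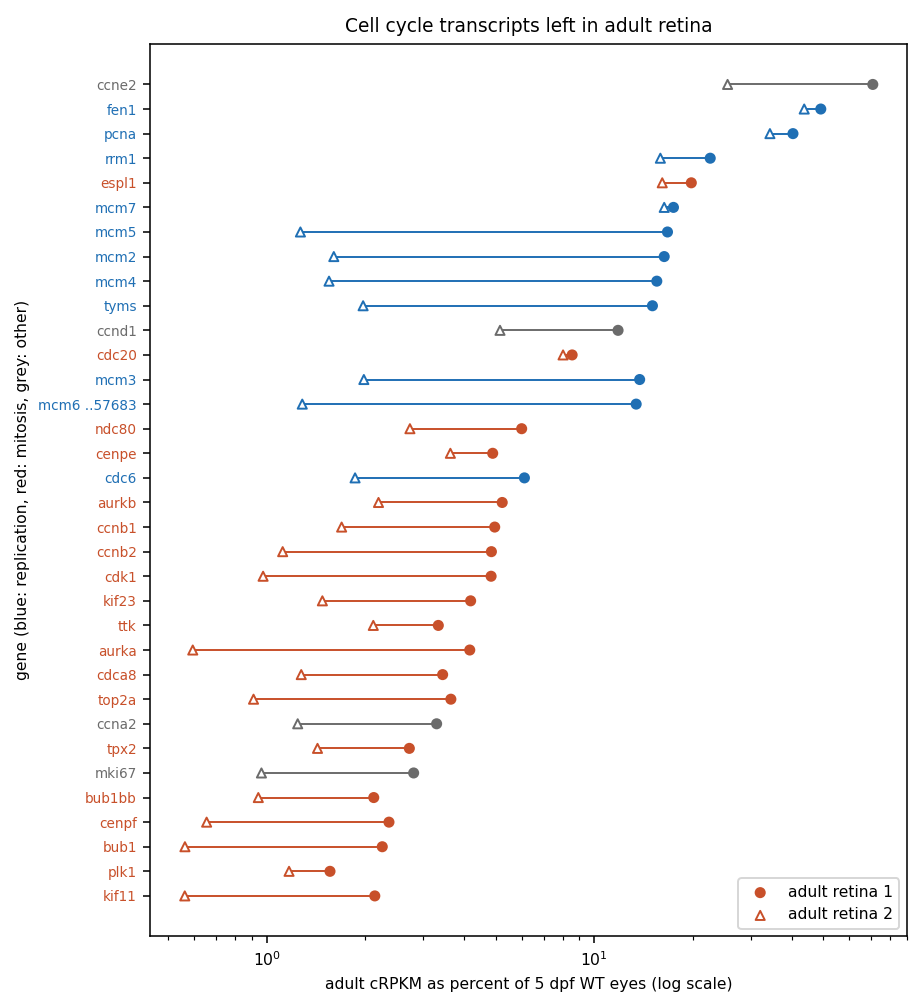
Level in adult retina libraries 1 (filled circles) and 2 (open triangles) as a percent of 5 dpf WT eyes, on a log axis, for the 34 members at 1 cRPKM or more in those eyes, ordered by their adult mean. By that mean ccne2, fen1 and pcna keep the largest shares, the MCM genes other than mcm7 span a wide range between the 2 libraries, and kif11 and plk1 are at the low end.

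The ratio of summed replication to summed mitosis transcripts stayed between 1.34 and 1.99 in larval eyes and was far higher in the adult. The summed cRPKM of replication genes over that of mitosis genes was 2.05 in the head, 1.59 in mutant against 1.46 in WT eyes at 48 hpf, 1.34 against 1.41 at 60 hpf, 1.65 against 1.64 at 72 hpf, and 1.99 against 1.79 at 5 dpf. It was 12.2 and 19.5 in adult libraries 1 and 2. pcna weighs heavily in this ratio, and without it the ratio ranged from 0.696 in 60 hpf mutant eyes to 1.18 in 5 dpf mutant eyes among larval eyes, was 1.07 in the head, and was 5.24 and 6.36 in the adult. As a share of 48 hpf WT eyes, summed mitosis transcripts were 150.3% in the head, 26.7% in 5 dpf WT eyes, and 1.09% and 0.494% in the adult. Replication transcripts were 211% in the head, 32.6% in 5 dpf WT eyes, and 9.14% and 6.59% in the adult. The median level of the 12 replication genes was 3.84 cRPKM in adult library 1 and 0.37 in adult library 2. In library 2, pcna at 55.9, fen1 at 10.45, mcm7 at 7.9 and rrm1 at 6.51 gave most of the summed 82.9 cRPKM. The group medians lay closer together in adult library 2 than in library 1. With a pseudocount of 1, the median log2 ratio to 48 hpf WT eyes was −4.66 for replication and −4.84 for mitosis genes in library 2. In library 1 these medians were −3.58 and −4.61. At these levels the pseudocount sets much of the median.

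**Figure D4:**
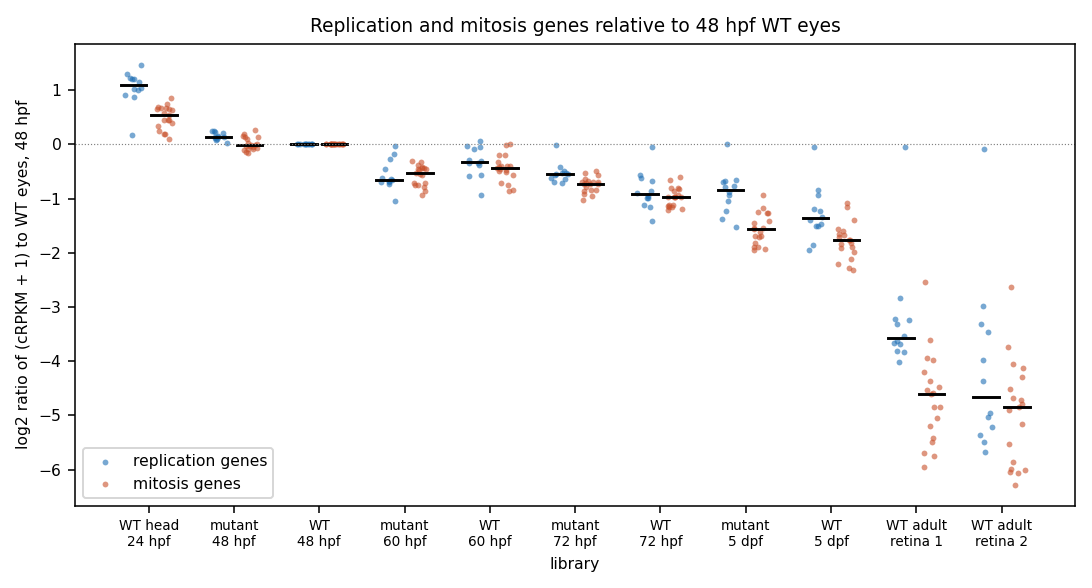
Log2 ratio of (cRPKM + 1) in each library to that of 48 hpf WT eyes, for each replication gene (blue) and each mitosis gene (red), with black bars for the medians. Replication medians stand above mitosis medians in the head (1.09 and 0.54), at 5 dpf and in adult library 1 (−3.58 and −4.61), and between 48 and 72 hpf the distance is −0.17 to 0.12 (mitosis minus replication).

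No difference between mutant and WT eyes passed a test in these genes. Over the 4 stages 0 of 34 members passed edgeR's quasi-likelihood test, none had an unadjusted p under 0.05, while 1 of 21829 genes (0.00458%) passed in the whole table. Neither DESeq2 nor limma called a member, beside 0.167% and 0.0% of the genes they tested. At an unadjusted p under 0.05, 1074 of the 21829 genes of the table stood. With so few calls in the whole table, 0 of 34 does not set these members apart. edgeR called 0 genes lower in mutant eyes, though summed photoreceptor genes had 3827 cRPKM in mutant against 29491 in WT eyes at 5 dpf. The fitted log2 change of the members, mutant over WT, lay between −0.18 ± 0.12 for cenpe and 0.14 ± 0.12 for cdc6. In the replication group the lowest was rrm1 at −0.03 ± 0.15, in the mitosis group the highest was bub1bb at 0.08 ± 0.11, and among the others the values ran from −0.01 ± 0.10 for ccna2 to 0.13 ± 0.11 for ccnd1. All 34 intervals at 95% stayed within −0.46 and 0.42, which is 0.726-fold to 1.34-fold, so a 2-fold difference shared by the stages lay outside every interval. A difference inside an interval could not be told from none with 1 library of each genotype at a stage. The median change was 0.01 for replication and −0.04 for mitosis genes, beside −0.01 for all genes.

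Single pairs, which have no replicate check, differed in direction. No member reached a 2-fold difference in any of the 4 pairs, where 0.676% of genes did at 48 hpf, 1.59% at 60 hpf, 0.563% at 72 hpf and 7.77% at 5 dpf in either direction. The median log2 ratio of replication genes, mutant over WT, was 0.14 at 48 hpf, −0.28 at 60 hpf, 0.38 at 72 hpf and 0.45 at 5 dpf. That of mitosis genes was −0.02, −0.09, 0.24 and 0.19 at those stages. For all genes at 1 cRPKM or more it was 0.05, 0.07, 0.05 and 0.25. At 48 hpf 24 of 35 members were higher in mutant eyes, where 59.4% of genes at 5 cRPKM or more were. At 60 hpf 6 of 35 members were, beside 63.4% of genes, at 72 hpf all 35, beside 60.2%, and at 5 dpf 34, all but espl1, beside 72.7%. Lower in mutant eyes at 60 hpf and higher at 72 hpf were 29 of 35 members, and 26.6% of the 12182 genes at 5 cRPKM or more in any of these libraries. Relative to the all-gene median, the 5 dpf medians were 0.20 for replication and −0.05 for mitosis genes. mcm7 moved most, with 62.9 cRPKM in mutant against 85.5 in WT eyes at 60 hpf, and 52.7 in mutant against 32.02 in WT eyes at 72 hpf. cdc20, plk1, ccne2 and the low mcm6 identifier were higher in mutant eyes in 4 of 4 pairs, by 0.00 to 0.45 on the log2 scale. No member was lower in all 4. The share of all genes with 1 direction in all 4 pairs was not counted, so whether these members are many or few cannot be said.

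Summed marker genes of other tissues and of progenitors also differed within pairs. The skeletal muscle genes summed to 14189.1 cRPKM in mutant against 8385.6 in WT eyes at 48 hpf, 6574.8 against 1689.4 at 60 hpf, 1460.7 against 1808.8 at 72 hpf, and 5886.0 against 2066.4 at 5 dpf. The 17 exocrine pancreas genes matched summed to 5868.1 cRPKM in the 5 dpf mutant library and to 37.8 in its WT partner, and the photoreceptor genes to 3826.9 and 29490.6. The 18 progenitor and ciliary margin genes summed to 2476.6 cRPKM in mutant against 2261.7 in WT eyes at 48 hpf, and 1766.5 against 1875.1 at 60 hpf. At 72 hpf they summed to 1447.1 against 1102.4, and at 5 dpf to 1004.1 against 940.9. Of these sums, hmga1a alone gave 1839 against 1636, 1259 against 1335, 1017 against 740 and 604 against 489. Summed red blood cell, lens and leukocyte genes differed in a direction that changed between stages. The part of these differences in the pair ratios was not tested.

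**Figure D5:**
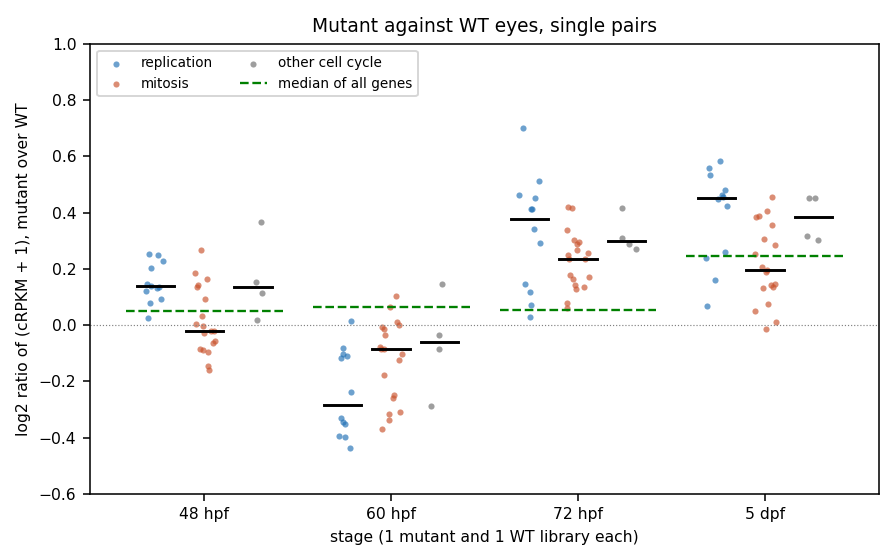
Log2 ratio of (cRPKM + 1), mutant over WT, for each member in the 4 single pairs, by role, with black bars for the group medians and green dashed lines for the median of all genes. Replication genes lie below 0 at 60 hpf (median −0.28) and above it at 72 hpf (0.38), and no point reaches 1.

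Whether the genotypes diverged with age was tested as well. A genotype by age term passed for 0 of 34 members and for 77 of 21829 genes (0.353%), and 0 members had an unadjusted p under 0.05 beside 2329 of these 21829 genes. The fitted terms lay between −0.28 ± 0.24 for espl1 and 0.21 ± 0.24 for cdc6, with 95% intervals from −0.93 to 0.87, which is wide.

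The remaining genes of the pathway, taken from further lists, followed the members in larval eyes. Of 45 other replication genes, 39 fell with age and 1 rose, and of 50 other mitosis genes 48 fell and none rose. Of all 21829 genes tested, 18.2% fell and 19.0% rose. The replication gene that rose was rrm2 ENSDARG00000020711, with a slope of 2.38 ± 0.74. The other rrm2 identifier, ENSDARG00000078069, had −4.86 ± 0.90, and both are uncertain as single genes. Among replication genes tipin, a fork protection factor, changed by −1.44 ± 0.19 (edgeR adjusted p = 0.00146) per doubling of age and lig1, the ligase that seals Okazaki fragments, by −1.41 ± 0.19 (edgeR adjusted p = 0.00153). Among mitosis genes the checkpoint gene mad2l1 changed by −1.71 ± 0.17 (edgeR adjusted p = 0.000668), the Aurora cofactor gene bora by −1.62 ± 0.17 (edgeR adjusted p = 0.000773) and the centromere gene cenpk by −1.57 ± 0.31 (edgeR adjusted p = 0.0061). A list of cell cycle regulators, mainly but not only of G1 and S phase entry, gave 17 of 23 lower and 1 higher. These were led downwards by e2f5, −1.71 ± 0.30, skp2, −1.66 ± 0.19, and foxm1, −1.46 ± 0.19. The 1 that rose was rbl2, a member of the retinoblastoma family that holds cells out of the cycle, with 0.5 cRPKM in the 24 hpf head, 1.6 in mutant against 1.46 in WT eyes at 48 hpf, 3.1 against 3.25 at 60 hpf, 3.17 against 2.58 at 72 hpf and 4.59 against 6.74 at 5 dpf, and 10.1 and 10.8 in adult retina libraries 1 and 2. Its 5 dpf values were above all earlier eyes and below both adult libraries, with a slope of 1.23 ± 0.27 (edgeR adjusted p = 0.00941).

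In the adult the other lists kept the same contrast. Of 45 other replication genes 36 were lower than in 5 dpf WT eyes and none was higher, with a median change of −1.63. Of 50 other mitosis genes 44 were lower and 1 higher, with a median of −4.12. Of all 23235 genes tested, 16.6% were lower and 17.5% higher. tk1, thymidine kinase, changed by −5.00 ± 0.56 (edgeR adjusted p = 0.00155) and cdc45, a helicase subunit, by −4.68 ± 0.76 (edgeR adjusted p = 0.00551). kif14, −6.08 ± 0.25 (edgeR adjusted p = 4.13e-05), aspm, −5.95 ± 0.45 (edgeR adjusted p = 0.000356), and nusap1, −5.70 ± 0.32 (edgeR adjusted p = 0.000112), were the mitosis genes with the largest falls, and pkmyt1, which encodes an inhibitory kinase of Cdk1, was the 1 that rose, by 1.01 ± 0.22 (edgeR adjusted p = 0.0133). Of 24 genes of the regulator list 14 were lower. Among them were e2f8 at −5.28 ± 0.62 (edgeR adjusted p = 0.00187), e2f1 at −5.28 ± 0.77 (edgeR adjusted p = 0.00354) and foxm1 at −4.63 ± 0.53 (edgeR adjusted p = 0.00167). From the same list rbl2 was higher, 1.23 ± 0.29 (edgeR adjusted p = 0.0185).

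The 5 inhibitors of cyclin-dependent kinases did not move as a group. cdkn1ca had 109 cRPKM in the 24 hpf head, 102 in mutant against 101 in WT eyes at 48 hpf, 60.04 against 54.1 at 60 hpf, 43.4 against 44.6 at 72 hpf and 13.8 against 11.2 at 5 dpf, and 0.6 and 0.42 in adult retina libraries 1 and 2. It fell with the division genes, by −2.30 ± 0.13 (edgeR adjusted p = 0.000287) per doubling of larval age and by −4.18 ± 0.19 (edgeR adjusted p = 5.17e-05) in the adult. cdkn1a, the inhibitor that p53 induces, had 1.82 cRPKM in the 24 hpf head, 3.38 in mutant against 2.73 in WT eyes at 48 hpf, 1.7 against 1.72 at 60 hpf, 6.28 against 7.52 at 72 hpf and 21.6 against 10.5 at 5 dpf, and 1.39 and 0.72 in adult retina libraries 1 and 2. It rose with larval age, 1.98 ± 0.41 (edgeR adjusted p = 0.00738), and was lower in adult retina than in 5 dpf WT eyes, −3.36 ± 0.42 (edgeR adjusted p = 0.00206), with its highest value in the 5 dpf mutant library. cdkn2a/b, of the INK4 family, had 0 cRPKM in the 24 hpf head, 0.21 in mutant against 0.13 in WT eyes at 48 hpf, 0.22 against 0.07 at 60 hpf, 0.52 against 0.64 at 72 hpf and 1.25 against 0.71 at 5 dpf, and 5.11 and 6.53 in adult retina libraries 1 and 2. It rose with larval age, 1.92 ± 0.49 (edgeR adjusted p = 0.0181), and further in the adult, 3.26 ± 0.54 (edgeR adjusted p = 0.0055). cdkn1cb fell in both comparisons and cdkn2c was higher in the adult, 1.08 ± 0.31 (edgeR adjusted p = 0.038). No gene of these 4 lists passed the genotype test or the genotype by age test. Of all 21829 genes tested, 0.00458% and 0.353% passed them, so this count does not set the lists apart.

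A special case was rrm2, the small subunit of ribonucleotide reductase, which matched 2 identifiers. ENSDARG00000078069 had 56.3 cRPKM in the 24 hpf head, 53.7 in mutant against 54.1 in WT eyes at 48 hpf, 36.1 against 37.7 at 60 hpf, 31.3 against 29.2 at 72 hpf and 0.66 against 0.45 at 5 dpf, and 0.85 and 0.88 in adult retina libraries 1 and 2. ENSDARG00000020711 had 12.2 cRPKM in the 24 hpf head, 5.68 in mutant against 3.51 in WT eyes at 48 hpf, 0 against 6.92 at 60 hpf, 8.83 against 4.77 at 72 hpf and 39.6 against 28.8 at 5 dpf, and 0.52 and 0.5 in adult retina libraries 1 and 2. The identifiers exchanged places between 72 hpf and 5 dpf, where the library set also changed, and the 60 hpf mutant library had none of the second. The sum of both was 68.5 cRPKM in the head, 59.3 in mutant against 57.6 in WT eyes at 48 hpf, 36.1 against 44.6 at 60 hpf, 40.1 against 34.0 at 72 hpf and 40.3 against 29.2 at 5 dpf, and 1.37 and 1.38 in adult libraries 1 and 2. Summed so, the 5 dpf level was close to that at 72 hpf. Reads could be shared between the copies, so the rise of one identifier and the fall of the other are uncertain as single genes.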

How the data were processed

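For every gene and library the authors deposited a read count in whole numbers and a cRPKM. The submitters' processing notes name danRer10 as the genome build. The cRPKM is an RPKM that the authors deposited after a correction. The sources used here do not give its kind, the aligner, the counter or the use of strand. Of 31848 Ensembl identifiers, 29387 had values. Symbols came from a table of gene names, matched without regard to case. The members, lists and tests were chosen with earlier results of these data known.

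Counts were tested in R 4.3.3 with edgeR 4.0.16 (TMM, filterByExpr, robust quasi-likelihood test, Benjamini-Hochberg adjustment over all genes tested, threshold 0.05). Genotype was fitted with a factor for stage over the 8 libraries of larval eyes (3 residual degrees of freedom), the genotype by age term with log2 hours (2), and age as a slope per doubling with a genotype term (5). Adult retina was set against 5 dpf WT eyes over all 11 libraries (4), where both 5 dpf libraries and 1 genotype term for all stages give the 5 dpf level, so a fitted change can depart from the plain ratio. Errors after ± are standard errors unless named SD, and were derived as the absolute change divided by the square root of F. Head against 48 hpf WT eyes, and single pairs, had no test and are log2 ratios of cRPKM after adding a pseudocount of 1, which understates the change of low genes. A 2-fold difference there needed 5 cRPKM in the higher library. Counts of members by order or direction had no floor and include the low mcm6 identifier, while the shares of all genes beside them took genes at the level stated. Alternatives used DESeq2 1.42.0, limma 3.58.1 on log2 cRPKM, no filter on low counts, a pseudocount of 0.1, TMM-scaled CPM, centring on the median gene, and leaving out stages or libraries. Members named with values in every library were set by a list of symbols and by the extremes of each role group in each test. From the other lists up to 3 called genes a direction were named. Nothing was printed of sequence, since no sequence table was used here.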

Additional observations from a re-analysis of the deposited data

Results flagged for a closer look

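The replication genes moved in opposite directions in neighbouring pairs. Their median log2 ratio, mutant over WT, was −0.28 at 60 hpf and 0.38 at 72 hpf. Of 35 members, 29 were lower in mutant eyes at 60 hpf and higher at 72 hpf, among them 11 of 12 replication genes, 15 of 19 mitosis genes and 3 of 4 others, beside 26.6% of all 12182 genes at 5 cRPKM or more. With 1 library of each genotype at a stage, the difference between these stages was not tested. The skeletal muscle genes summed to 6574.8 and 1689.4 cRPKM in mutant and WT eyes at 60 hpf and to 1460.7 and 1808.8 at 72 hpf. The progenitor and ciliary margin genes summed to 1766.5 and 1875.1 at 60 hpf and to 1447.1 and 1102.4 at 72 hpf. The part of both lists in the ratios was not tested.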

How the results depend on the processing

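No member was called for genotype, or for its change with age, under any alternative run. The number of genes of the whole table called for genotype (1 higher, 0 lower) became 9 and 36 with DESeq2, 3 higher with no filter, 0 higher with limma and without the 60 hpf pair, 1 lower without the 48 hpf pair, 2 and 2 without the 72 hpf pair, and 0 and 3 without the 5 dpf pair. For the genotype by age term (49 higher, 28 lower) it was 123 and 168 with DESeq2, 99 and 70 with no filter, 155 and 191 without the 48 hpf pair, 431 and 565 without the 72 hpf pair, and 0 and 0 with limma, without the 60 hpf pair and without the 5 dpf pair. Members lower with age (32) were 8 without the 5 dpf pair. All genes (4157 higher, 3983 lower) were then 338 and 343, with a separate WT slope 1876 and 1256, without the 5 dpf mutant library 2357 and 1872, and 2575 lower without the 48 hpf pair. Members lower in the adult (33) were 0 in the fit to the 5 dpf pair and the adult pair. All genes (4073 higher, 3853 lower) were then 0 and 0, 2515 higher with limma, 2270 higher without the 5 dpf mutant library, and 5319 to 6267 lower with an adult library left out. The cause of these shifts was not tested.

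Some uncalled changes turned sign. For genotype, rrm1 was 0.12 with limma and 0.13 without the 60 hpf pair, and ccna2 was 0.0024 with no filter, 0.13 with limma, 0.0082 without the 48 hpf pair and 0.056 without the 60 hpf pair. For the genotype by age term, mcm7 was 0.19 with limma, 0.044 without the 48 hpf pair and 0.89 without the 5 dpf pair, espl1 (−0.28) was 0.23 without the 5 dpf pair, and ccnd1 was 0.17 with limma and 0.17 without the 48 hpf pair. In the adult, mcm6 ENSDARG00000033231 was 0.52 without adult library 2, 0.19 in the fit to the 5 dpf pair and the adult pair, and 0.24 without the 5 dpf mutant library. The mitosis minus replication median in adult library 1 (−1.03) was −2.33 with a pseudocount of 0.1 and −1.93 on TMM-scaled CPM. In adult library 2 (−0.18) it was −0.54, −0.70 and, without pcna, 0.11. The alternatives without the 5 dpf mutant library and without pcna were chosen after seeing the data.

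The genotype fit is itself paired by stage, through its factor for stage, and the labels give no further number that pairs libraries. With 1 library of each genotype at a stage, differences smaller than the intervals given could not be seen, and the adult levels of aurka, ccnb2 and bub1bb rested on 14 and 3, 13 and 5, and 10 and 6 reads in libraries 1 and 2.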

Other observations

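The mitosis genes did not all leave the adult retina to the same degree. Among the 19, espl1 kept 17.9% of its 5 dpf WT level as the mean of both adult libraries, cdc20 8.29%, ndc80 4.37% and cenpe 4.27%, whereas kif11 kept 1.35% and plk1 1.37%. espl1 and cdc20 were also nearly equal in the adult libraries, with 0.65 and 0.53 cRPKM for espl1 and 0.81 and 0.76 for cdc20 in libraries 1 and 2, while cdk1 had 1.29 and 0.26. The counts behind these values were 295 and 349 reads for espl1, 111 and 151 for cdc20, and 108 and 32 for cdk1.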
